A study of Mus musculus with 21 samples.

Results

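Aminoacyl-tRNA synthetases, the enzymes that load each transfer RNA with its amino acid, were followed in mouse cells labelled as retinal ganglion cells, the neurons that send their axons through the optic nerve, 3 days after a crush of that nerve. The genes were taken from a fixed list of 36 symbols, 20 for cytosolic and 16 for mitochondrial enzymes, and all 36 were found among the 17164 genes of the count table and passed the filter on low counts. Names without a 2 stand for cytosolic enzymes, although Gars and Kars serve both compartments, and names ending in 2 stand for mitochondrial enzymes. Bulk RNA sequencing had been done on cells sorted by flow cytometry from papain-dissociated retina of C57BL/6 mice. Every group had the nerve crush. The groups were cells with guide RNA against ATF3 (5 libraries), ATF4 (2 libraries), CEBPG, that is C/EBP gamma (4 libraries), or CHOP, the product of Ddit3 (5 libraries), and cells with a control guide (4 libraries). The 4 targets are bZIP transcription factors of the cellular stress response. The vector, the source of Cas9, the age of the mice, the gate of the sort and the number of mice per library could not be taken from the labels. A further library, whose title says control while its genotype says CHOP knockout, entered no group.

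Each synthetase recognises its amino acid and the matching transfer RNAs, activates the amino acid with ATP and joins it to the tRNA. A set of cytosolic synthetases (Dars, Eprs, Iars, Kars, Lars, Mars, Qars and Rars) is held with the scaffold proteins Aimp1, Aimp2 and Eef1e1 in the multi-synthetase complex of mammalian cells, and the others act outside it. Nuclear genes also encode the mitochondrial enzymes, which serve the translation of the few proteins encoded by mitochondrial DNA. When charged tRNA runs short, uncharged tRNA activates the kinase GCN2 (Eif2ak4), which raises translation of ATF4. ATF4 forms dimers with C/EBP proteins, CEBPG among them, and in mouse cells is known to bind C/EBP-ATF response elements near genes of amino acid supply, cytosolic synthetase genes included.

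Library depth, batch and the identity of the cells bear on every comparison. Counted reads per library were 25267560 to 32776378 in the ATF3, 11929692 and 12404601 in the ATF4, 9000250 to 29810987 in the CEBPG and 14272784 to 31543917 in the CHOP knockouts, against 6401446 to 11752828 in the controls. The submitters' sample sheet places the ATF3, CEBPG and CHOP knockouts in batch 3 and among females, the ATF4 knockouts in batch 1, and the controls in batch 2 and among males. Knockout and batch therefore cannot be told apart against control, and no within-batch value against control exists. The sheet gives ATF4 replicate 1 as female, but it held 3 Xist reads and 709 reads of the Y-linked gene Ddx3y. By log2 fold change the targeted transcript was lower than in controls in the ATF3 (Atf3, -1.56), ATF4 (Atf4, -0.97) and CHOP (Ddit3, -0.43) knockouts, and Cebpg did not pass in the CEBPG knockouts (-0.16, adjusted p = 0.491). Atf4 was lower than in controls in the other knockouts as well, with log2 fold changes of -1.77 (ATF3), -1.22 (CEBPG) and -1.50 (CHOP). Atf3 was also lower in the CHOP knockouts (-1.62; ATF3 over CHOP 0.05, adjusted p = 0.972) and Ddit3 in the ATF3 (-0.51) and CEBPG knockouts (-0.41). Cebpg was lower than in controls in the ATF3 (-0.42, adjusted p = 0.0386), ATF4 (-0.63, adjusted p = 0.0223) and CHOP knockouts (-0.58, adjusted p = 0.00529). It was higher in the CEBPG than in the CHOP knockouts (0.42, adjusted p = 0.0475). ATF3 over CEBPG (-0.26, adjusted p = 0.249) and ATF4 over CEBPG (-0.47, adjusted p = 0.0860) did not pass for Cebpg. All 13 ganglion cell markers were counted, together 0.0474% to 0.0699% of reads in knockout and 0.0518% to 0.0689% in control libraries, and Pou4f2 was at 0 in all CEBPG knockouts. Müller glia markers took 0.644% to 1.38% in knockouts and 0.621% to 0.974% in controls. Against control, 4 of these 13 were higher and 4 lower (ATF3), 8 and 0 (ATF4), 4 and 7 (CEBPG), and 1 and 6 (CHOP). Microglia markers took 0.439% to 0.967% in knockouts and 0.525% to 0.838% in controls. Of these 15, 3 were higher and 0 lower than in controls (ATF3), 5 and 2 (ATF4), 8 and 0 (CEBPG), and 1 and 5 (CHOP). The ganglion list took a smaller share than the Müller glia, microglia, amacrine, rod and cone lists in each of the 20 libraries, so the markers do not show these libraries to be mainly ganglion cells, although the lists hold different genes and the shares are not shares of cells. Of the 13 ganglion markers 3 were higher and 5 lower than in controls in the ATF3, 5 and 0 in the ATF4, 1 and 5 in the CEBPG and 2 and 4 in the CHOP knockouts, and 8 were higher and 1 lower in the ATF4 than in the ATF3 knockouts.

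Taken per length of transcript, cytosolic synthetases stood above mitochondrial ones in every group. The median cytosolic level was 43.7 (ATF3), 39.8 (ATF4), 41.2 (CEBPG) and 47.0 CPM per kilobase of transcript (CHOP), CPM being read counts scaled to the library total, against 46.3 in the controls. The median mitochondrial level was 10.8 (ATF3), 13.7 (ATF4), 11.8 (CEBPG) and 11.7 (CHOP) CPM per kilobase, against 13.7 in the controls. In the controls Sars, the seryl enzyme, had the highest level (138 CPM per kilobase), followed by Nars, the asparaginyl enzyme (119.6), and Mars2 had the lowest (2.22). Rars2 (38.9) was the mitochondrial enzyme with the highest level.

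The sum of the 20 cytosolic genes was 2503, 2643, 2642, 2672 and 2655 CPM in the ATF3 knockouts and 2557 and 2541 CPM in the ATF4 knockouts. The same sum was 2473, 2518, 2646 and 2689.5 CPM in the CEBPG and 2746, 2712, 2519, 2851 and 2756 CPM in the CHOP knockouts, against 3228, 3080.5, 2774 and 2887 CPM in the controls. All ATF3, ATF4 and CEBPG libraries lay below the lowest control, and CHOP replicate 4 lay above it. The mitochondrial set came to 569 ± 7.23 CPM (SD, n = 5) in the ATF3, 544 ± 5.12 (n = 2) in the ATF4, 588 ± 65.0 (n = 4) in the CEBPG and 557 ± 40.4 (n = 5) in the CHOP knockouts, against 632 ± 30.9 (n = 4) in the controls. The ratio of the sets was 4.61 ± 0.134 (ATF3), 4.69 ± 0.0658 (ATF4), 4.41 ± 0.331 (CEBPG) and 4.90 ± 0.439 (CHOP), against 4.75 ± 0.419 in the controls, and the libraries of every knockout overlapped the controls. In bulk libraries, fewer cells of a type and less RNA per cell cannot be told apart.

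**Figure D1:**
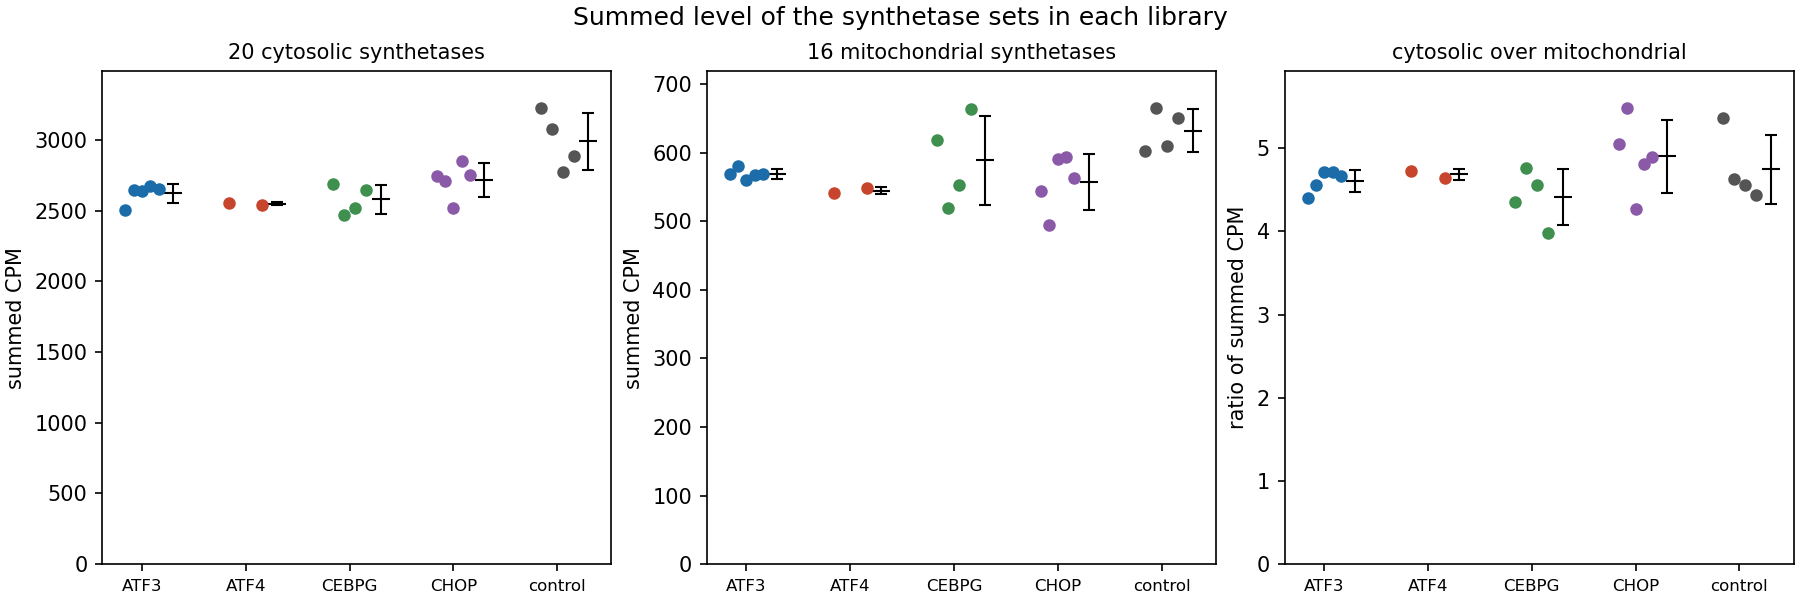
Summed CPM of the 20 cytosolic and the 16 mitochondrial synthetases and the ratio of the sums, 1 point per library, with the mean and SD of each group in black. The cytosolic sums of the ATF3, ATF4 and CEBPG knockouts lie below all 4 controls, and the ratio overlaps between every knockout group and the controls.

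Against control, more cytosolic synthetases were lower than higher in each knockout. In the lower direction the cytosolic share was above that of all genes tested, and the mitochondrial share was nearer to it, at 3 of 16 genes, in the CEBPG and CHOP knockouts. That contrast between the sets was not the same under each tool. DESeq2 called 7 mitochondrial and 7 cytosolic genes lower in the ATF3 knockouts and 8 and 7 in the CHOP knockouts. RLE size factors gave 6 mitochondrial genes lower in the CHOP knockouts. Shares of all genes called under other tools, or with libraries left out, are not given. A change in the calls over all genes was therefore not set apart from one in the members. In the ATF3 knockouts 7 of 20 cytosolic and 4 of 16 mitochondrial genes were lower, where 14.8% of all 16797 genes tested were lower, and 0 and 1 were higher, where 18.6% of all genes were (33.4% in either direction). In the ATF4 knockouts 9 cytosolic and 5 mitochondrial genes were lower (14.6% of all genes), and 1 of each set was higher (16.6%, and 31.3% in either direction). Without ATF4 replicate 1 the lower counts were 4 and 2. In the CEBPG knockouts 8 and 3 were lower (15.0%) and 1 and 1 higher (18.3%, and 33.4% in either direction). With CEBPG replicates 6 and 8 left out, a choice made after the data had been seen, no mitochondrial gene was lower and 4 cytosolic genes were higher. In the CHOP knockouts 7 and 3 were lower (15.4%) and 0 and 1 higher (18.1%, and 33.5% in either direction), and 5 mitochondrial genes were lower without CHOP replicate 3, 4 or 5. All calls rest on edgeR's quasi-likelihood test with a Benjamini-Hochberg adjusted p below 0.05 over all genes.

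The median log2 fold change of the cytosolic set was -0.18 (ATF3), -0.21 (ATF4), -0.29 (CEBPG) and -0.10 (CHOP), and that of the mitochondrial set -0.28, -0.42, -0.09 and -0.32 in that order. Over all genes tested the median was 0.06, 0.00, 0.06 and 0.01. The calls were set by a part of the members, since 13, 10, 11 and 13 of the 20 cytosolic genes did not pass in the ATF3, ATF4, CEBPG and CHOP comparisons. The 4 comparisons share their 4 control libraries, so a gene that passed in each is not 4 separate results.

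**Figure D2:**
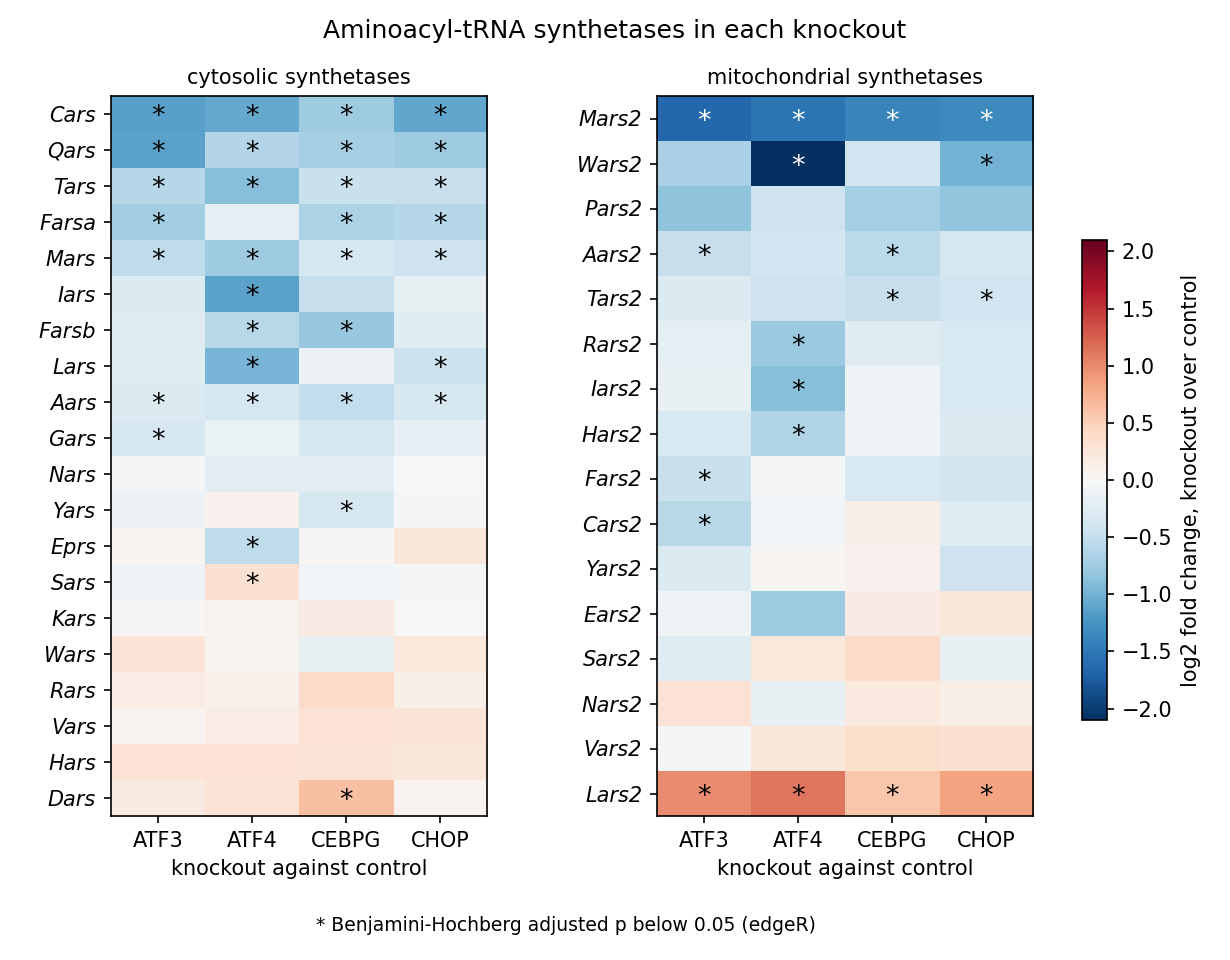
Log2 fold change of each of the 36 synthetases in 4 knockouts over control, as colour (blue lower, red higher in the knockout), with cytosolic genes on the left and mitochondrial genes on the right, ordered by their mean over the columns. Asterisks mark an edgeR adjusted p below 0.05. Cars and Mars2 are blue and Lars2 red in every column.

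The promoters of these genes were searched for letters of the C/EBP-ATF response element, TGATGNAA, on both strands from 250 bases before to 50 bases after the RefSeq gene start (GRCm38.p6). A promoter was given for 26 of the 36 members. It held the letters in 5 of 12 cytosolic members (41.7%) and 0 of 14 mitochondrial members, against 4.51% of all 27025 genes with a promoter. The palindromic element of NRF1, a regulator of nuclear genes for mitochondria, was in none of them and in 1.07% of all promoters. A match is a description of the letters and no measured binding. The windows below hold the matches of Tars and Iars, which were lower in the ATF4 knockouts, and, chosen after their values were seen, of Gars and Yars, which did not pass there. Capitals mark the match, which is read as its reverse complement where the element lies on the other strand, and positions are counted from the gene start with no 0.
Tars, chr15:11399655-11399684, minus strand, match at -15 to -8: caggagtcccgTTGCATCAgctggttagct
Iars, chr13:49682126-49682155, plus strand, match at 8 to 15: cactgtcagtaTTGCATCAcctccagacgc
Gars, chr6:55037960-55037989, plus strand, match at -30 to -23: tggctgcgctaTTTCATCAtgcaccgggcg
Yars, chr4:129189895-129189924, plus strand, match at 4 to 11: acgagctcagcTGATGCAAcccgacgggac

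Among the members with the letters, Aars, described below, was lower than in controls in each of the 4 knockouts. Gars, the glycyl enzyme, was lower in the ATF3 knockouts (-0.35, adjusted p = 0.0484). The Gars call was lost without any 1 of the 5 ATF3 replicates, or without control replicate 4, 5 or 8 (adjusted p up to 0.143). Yars, the tyrosyl enzyme, was at 83.4, 112, 129 and 124 CPM in the CEBPG and 148 and 152 CPM in the ATF4 knockouts, against 146, 125, 154 and 139 CPM in the controls. It was lower than in controls in the CEBPG knockouts (-0.33, adjusted p = 0.0400), and that call was lost without CEBPG replicate 6 (-0.21, adjusted p = 0.133) or control replicate 4 or 7.

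Cars, the cysteinyl enzyme (chromosome 7, 143557230 to 143600090, minus strand, in mm10 coordinates of GENCODE M21), had the smallest adjusted p among the 36 members in each of the 4 comparisons with control. It was at 56.9, 56.6, 63.5, 56.3 and 62.7 CPM in the ATF3, 62.6 and 61.6 CPM in the ATF4 and 57.4, 53.4, 65.1, 70.4 and 57.4 CPM in the CHOP knockouts. It was at 83.3, 64.4, 82.1 and 81.2 CPM in the CEBPG knockouts, against 116, 159, 116 and 130.0 CPM in the controls. Every knockout library lay below the lowest control. The log2 fold change over control was -1.14 (SE 0.12, adjusted p = 1.32e-07) for ATF3, -1.07 (SE 0.17, adjusted p = 3.37e-05) for ATF4, -0.74 (SE 0.13, adjusted p = 8.71e-05) for CEBPG and -1.10 (SE 0.12, adjusted p = 1.95e-07) for CHOP.

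Qars, which charges glutamine tRNA in the multi-synthetase complex (chromosome 9, 108507706 to 108515941, plus strand), was at 35.8, 38.1, 34.0, 33.4 and 27.7 CPM in the ATF3 and 44.2 and 51.9 CPM in the ATF4 knockouts. It was at 39.1, 54.5, 46.1 and 42.1 CPM in the CEBPG and 36.9, 39.3, 46.6, 52.3 and 44.5 CPM in the CHOP knockouts, against 55.3, 78.6, 75.6 and 84.1 CPM in the controls. All knockout libraries lay below all controls, with log2 fold changes of -1.12 (ATF3), -0.61 (ATF4), -0.69 (CEBPG) and -0.74 (CHOP). The adjusted p was 3.90e-06, 0.0236, 0.00176 and 4.92e-04, and the ATF4 call was lost without either ATF4 replicate (-0.50, adjusted p = 0.208 without replicate 1, and -0.73, adjusted p = 0.0528 without replicate 3). Mars, the methionyl enzyme of the complex (chromosome 10, 127296221 to 127311786, minus strand), was at 135, 132, 127, 121 and 132 CPM in the ATF3 and 119 and 104 CPM in the ATF4 knockouts. It was at 168, 160.3, 127 and 129 CPM in the CEBPG and 157, 139, 121, 109 and 168 CPM in the CHOP knockouts, against 174, 208, 188 and 181 CPM in the controls. Every knockout library of Mars lay below the lowest control. Mars fell by 0.53, 0.75, 0.36 and 0.44 on the log2 scale in that order, with adjusted p = 0.00139, 0.00114, 0.0334 and 0.00728. The CEBPG call of Mars was lost without CEBPG replicate 9 or 10 or control replicate 5 (adjusted p up to 0.0976). Its exons share 68 bases with those of Ddit3 on the other strand, and the strand setting of the counting is unknown.

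Aars, the alanyl enzyme (chromosome 8, 111033144 to 111057664, plus strand), was at 285, 275, 306, 325 and 326 CPM in the ATF3 and 288 and 289 CPM in the ATF4 knockouts. It was at 278, 275, 233 and 249 CPM in the CEBPG and 309.5, 286, 262, 313 and 301 CPM in the CHOP knockouts, against 440.3, 372, 325 and 349 CPM in the controls. ATF3 replicate 9 reached the lowest control, and the other knockout libraries lay below it. The log2 fold changes were -0.29, -0.37, -0.52 and -0.34 (adjusted p = 0.0226, 0.0320, 3.34e-04 and 0.00931 for ATF3, ATF4, CEBPG and CHOP). Without control replicate 4, the highest, the ATF3, ATF4 and CHOP calls were lost (-0.20, adjusted p = 0.116, -0.27, adjusted p = 0.0961 and -0.25, adjusted p = 0.0542 in that order). The ATF4 call was also lost without either ATF4 replicate and the ATF3 call without ATF3 replicate 5 or 6. Exons of Aars share 1326 bases with Exosc6 on the same strand, which was itself lower in the ATF3 knockouts (-0.64, adjusted p = 0.0430).

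Tars, the threonyl enzyme (chromosome 15, 11382301 to 11399665, minus strand), averaged 77.0 ± 4.76 (ATF3), 62.6 ± 13.1 (ATF4), 83.9 ± 13.2 (CEBPG) and 82.7 ± 17.9 CPM (CHOP), against 116 ± 25.3 CPM in the controls. Its log2 fold changes were -0.59, -0.89, -0.47 and -0.49 (adjusted p = 0.00618, 0.00305, 0.0374 and 0.0214). CHOP replicate 4, at 106 CPM, lay within the control range of 97.0 to 154 CPM. The ATF3 call held with each library left out. The ATF4 call was lost without ATF4 replicate 1, the CEBPG call without CEBPG replicate 8 or 9 or control replicate 5, and the CHOP call without CHOP replicate 3 or control replicate 5 (adjusted p up to 0.0895, 0.140 and 0.0939).

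**Figure D3:**
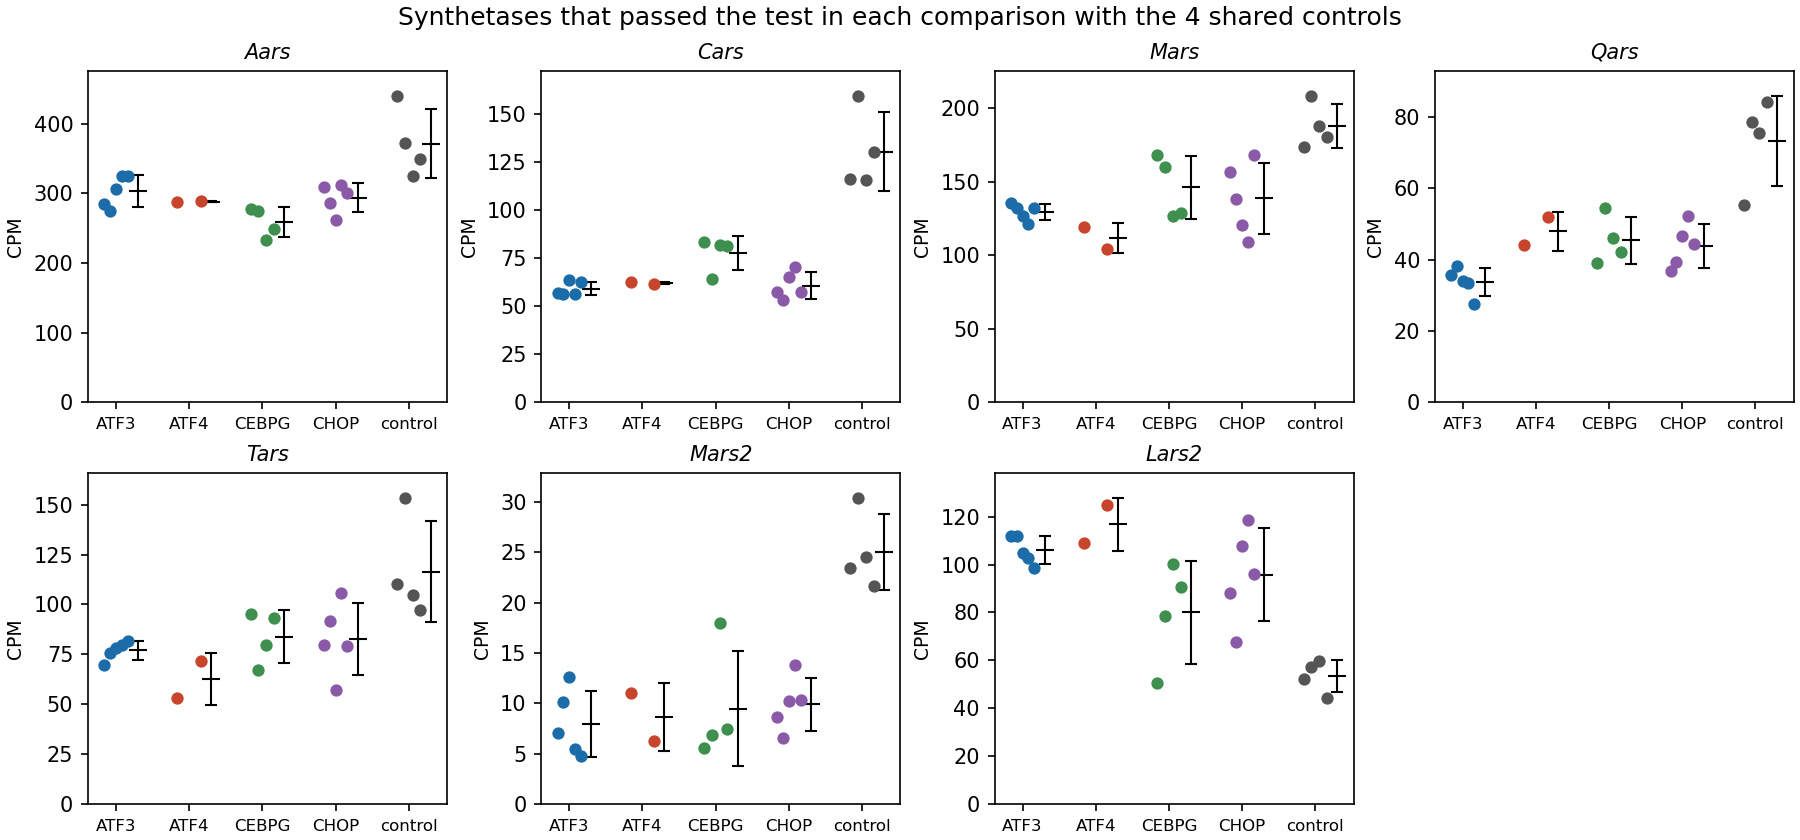
CPM of 5 cytosolic (Aars, Cars, Mars, Qars, Tars) and 2 mitochondrial (Mars2, Lars2) synthetases in each of 20 libraries, 1 point per library, with the mean and SD of each group in black. All knockout points of Cars, Qars and Mars2 lie below the 4 controls, and CEBPG replicate 6 is the knockout library of Lars2 inside the control range.

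Among the mitochondrial genes Mars2 was lower and Lars2 higher in each comparison. Mars2, the mitochondrial methionyl enzyme (chromosome 1, 55237177 to 55248470, plus strand), was at 7.07, 10.1, 12.6, 5.46 and 4.81 CPM in the ATF3 and 11.0 and 6.25 CPM in the ATF4 knockouts. It was at 5.57, 6.91, 18.0 and 7.45 CPM in the CEBPG and 8.61, 6.59, 10.2, 13.8 and 10.3 CPM in the CHOP knockouts, against 23.4, 30.5, 24.6 and 21.7 CPM in the controls. No knockout library reached the controls, and CEBPG replicate 9, at 18.0 CPM, came closest. The log2 fold changes were -1.64 (SE 0.35), -1.53 (SE 0.48), -1.39 (SE 0.37) and -1.33 (SE 0.34), with adjusted p = 6.60e-04, 0.0170, 0.00514 and 0.00398. The ATF4 call was lost without ATF4 replicate 3 (-1.18, adjusted p = 0.185), and the CEBPG call with CEBPG replicates 6 and 8 left out together (-0.94, adjusted p = 0.0955).

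Lars2, the mitochondrial leucyl enzyme (chromosome 9, 123366927 to 123462666, plus strand), was higher than in controls in each knockout. It was at 112, 112, 105, 103 and 98.6 CPM in the ATF3 and 109 and 125 CPM in the ATF4 knockouts. It was at 50.5, 78.6, 100.4 and 90.6 CPM in the CEBPG and 88.2, 67.8, 108, 118 and 96.1 CPM in the CHOP knockouts, against 52.1, 57.2, 59.8 and 44.5 CPM in the controls. Every knockout library except CEBPG replicate 6 lay above the highest control. The log2 fold changes were 0.99, 1.13, 0.59 and 0.84 (adjusted p = 7.94e-05, 2.27e-04, 0.0126 and 4.34e-04). The CEBPG call was lost without CEBPG replicate 9 (0.46, adjusted p = 0.0591) or control replicate 8 (0.48, adjusted p = 0.0654). Lars2 averaged 106 (ATF3), 117 (ATF4), 80.0 (CEBPG) and 95.7 CPM (CHOP) of the mitochondrial sum, against 53.4 CPM in the controls. Without Lars2 the other 15 genes came to 578 ± 33.2 CPM in the controls. They came to 463 ± 6.66 (ATF3), 427 ± 6.12 (ATF4), 508 ± 45.3 (CEBPG) and 461 ± 21.7 CPM (CHOP) in the knockouts. Without Lars2 the ratio of the cytosolic to the mitochondrial sum was 5.92 and 6.01 in the ATF4 knockouts, above every control, whose values were 5.87, 5.07, 5.05 and 4.76. It averaged 5.66 ± 0.124 (ATF3), 5.10 ± 0.282 (CEBPG) and 5.91 ± 0.416 (CHOP), against 5.19 ± 0.477 in the controls, with overlap in each of these 3 groups. Lars2 was the 1 mitochondrial gene called higher in any knockout, so leaving it out raises the knockout ratios more by construction. With Lars2 the ATF4 ratios were 4.73 and 4.64, within the control range of 4.44 to 5.36.

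The ATF4 knockouts differed from the other knockouts in a small set of members, of which the isoleucyl, leucyl and glutamyl-prolyl enzymes belong to the multi-synthetase complex. Atf4 itself was higher in the ATF4 than in the ATF3 (0.81, adjusted p = 8.55e-04) and CHOP knockouts (0.54, adjusted p = 0.0165). Against the CEBPG knockouts Atf4 did not pass (0.25, adjusted p = 0.280). Ddit3 was higher in the ATF4 than in the ATF3 (0.89), CEBPG (0.78) and CHOP knockouts (0.80), with adjusted p up to 5.25e-04. Iars (chromosome 13, 49682100 to 49734267, plus strand) was at 35.6 and 43.3 CPM in the ATF4 knockouts. It was at 65.6, 86.2, 62.5, 68.7 and 71.4 CPM in the ATF3, 73.1, 47.1, 55.8 and 72.2 CPM in the CEBPG and 82.3, 91.6, 55.3, 70.1 and 86.2 CPM in the CHOP knockouts, and at 107, 94.4, 53.8 and 90.0 CPM in the controls. Both ATF4 libraries lay below every other library. The log2 fold change of Iars in the ATF4 knockouts was -1.13 over control (SE 0.25, adjusted p = 0.00136), -0.85 over ATF3 (adjusted p = 0.0130), -0.65 over CEBPG (adjusted p = 0.0477) and -0.97 over CHOP knockouts (adjusted p = 0.00531). These 3 calls were lost without ATF4 replicate 1 (adjusted p = 0.178, 0.292 and 0.107), and the CEBPG call also without ATF4 replicate 3 or CEBPG replicate 6 or 10, whereas the call against control held with each library left out. In the other knockouts its log2 fold change over control did not pass, at -0.29 (ATF3, adjusted p = 0.255), -0.48 (CEBPG, adjusted p = 0.0626) and -0.16 (CHOP, adjusted p = 0.539).

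Lars, the cytosolic leucyl enzyme, was at 51.0 and 49.6 CPM in the ATF4 knockouts. It was at 68.0, 90.1, 90.0, 86.9 and 83.2 CPM in the ATF3, 115, 83.2, 82.5 and 85.3 CPM in the CEBPG and 78.1, 77.2, 76.1, 64.5 and 68.6 CPM in the CHOP knockouts, against 123, 104, 73.4 and 97.4 CPM in the controls. Both ATF4 libraries lay below every other library. It was lower than in controls in the ATF4 (-0.98, SE 0.19, adjusted p = 3.45e-04) and CHOP knockouts (-0.45, SE 0.14, adjusted p = 0.0154), where its mitochondrial counterpart Lars2 was higher. Leaving out control replicate 4 ended the CHOP call (-0.33, adjusted p = 0.0849). Lars was also lower in the ATF4 knockouts than in the ATF3 (-0.73), CEBPG (-0.86) and CHOP knockouts (-0.53), with adjusted p = 0.00521, 0.00124 and 0.0324. Without ATF4 replicate 1 the ATF3 and CHOP calls were lost (adjusted p = 0.0581 and 0.156), and the CHOP call also without ATF4 replicate 3 or CHOP replicate 1, 2 or 3.

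Eprs, a fused enzyme for glutamate and proline, was at 141 and 147 CPM in the ATF4 knockouts. It was at 200.2, 220.0, 195, 236 and 221 CPM in the ATF3, 188, 210.1, 240.2 and 209 CPM in the CEBPG and 236, 244, 221, 254 and 267 CPM in the CHOP knockouts, against 259.6, 196, 196 and 179.8 CPM in the controls. Both ATF4 libraries were again the lowest, with a log2 fold change over control of -0.53 (SE 0.14, adjusted p = 0.00613). It was lower in the ATF4 knockouts than in the ATF3 (-0.58, adjusted p = 0.00405), CEBPG (-0.56, adjusted p = 0.00439) and CHOP knockouts (-0.77, adjusted p = 4.09e-04). Without ATF4 replicate 1 the calls against control, ATF3 and CEBPG were lost (adjusted p = 0.0697, 0.0687 and 0.0565), and that against CHOP held.

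Of the 8 synthetases of the complex, 5 were lower in the ATF4 knockouts (Eprs, Iars, Lars, Mars and Qars), and Dars, Kars and Rars did not pass, at 0.29, 0.08 and 0.10, where 14.6% of all genes were lower. The calls of Eprs and Qars were lost without ATF4 replicate 1, which leaves 3 of these 5. Lower calls in the complex numbered 2 (ATF3), 2 (CEBPG) and 3 (CHOP) in the other knockouts, and the grouping by complex was made after the values were seen. Sars moved the other way in the ATF4 knockouts, at 341 and 302 CPM, against 294, 238, 254 and 240.3 CPM in the controls (0.32, SE 0.11, adjusted p = 0.0303). Both ATF4 libraries lay above every other library, with control replicate 4 the next, and the call was lost without ATF4 replicate 1 or control replicate 5, 7 or 8 (adjusted p up to 0.292). Sars was at 236, 248, 245, 238 and 251 CPM in the ATF3, 272, 222, 243 and 256 CPM in the CEBPG and 248, 241, 258, 270.3 and 250.3 CPM in the CHOP knockouts. It was higher in the ATF4 than in the ATF3 (0.40), CEBPG (0.37) and CHOP knockouts (0.34), with adjusted p = 0.00864, 0.0135 and 0.0220, and these calls were lost without ATF4 replicate 1 as well.

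Among mitochondrial genes, Wars2, the tryptophanyl enzyme, was at 3.38 and 3.33 CPM in the ATF4 knockouts. It was at 6.94, 10.7, 10.9, 9.49 and 6.57 CPM in the ATF3, 12.5, 7.59, 12.2 and 11.4 CPM in the CEBPG and 10.5, 8.97, 4.93, 4.99 and 6.57 CPM in the CHOP knockouts, against 14.0, 16.5, 15.5 and 11.4 CPM in the controls. Its log2 fold change over control was -2.09 (SE 0.42, adjusted p = 5.11e-04) for ATF4 and -0.995 (SE 0.29, adjusted p = 0.00954) for CHOP. It was lower in the ATF4 than in the ATF3 (-1.41), CEBPG (-1.70) and CHOP knockouts (-1.10), with adjusted p = 0.0121, 0.00300 and 0.0425. The calls against ATF3 and CHOP were lost without either ATF4 replicate (adjusted p up to 0.101 and 0.195), the CHOP call also without CHOP replicate 1, 2 or 5, and the calls against control held with each library left out. Iars2 (-0.89), Rars2 (-0.79) and Hars2 (-0.62), for isoleucine, arginine and histidine, were also lower than in controls in the ATF4 knockouts, and each call was lost without ATF4 replicate 1 (adjusted p = 0.187, 0.299 and 0.0970). In Iars2 that library held 24.4 CPM and the other ATF4 library 48.4 CPM. Exons of Iars2 share 2034 bases, 22.9% of their length, with Rab3gap2 on the other strand, which did not pass in the ATF4 knockouts (-0.21, adjusted p = 0.541).

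**Figure D4:**
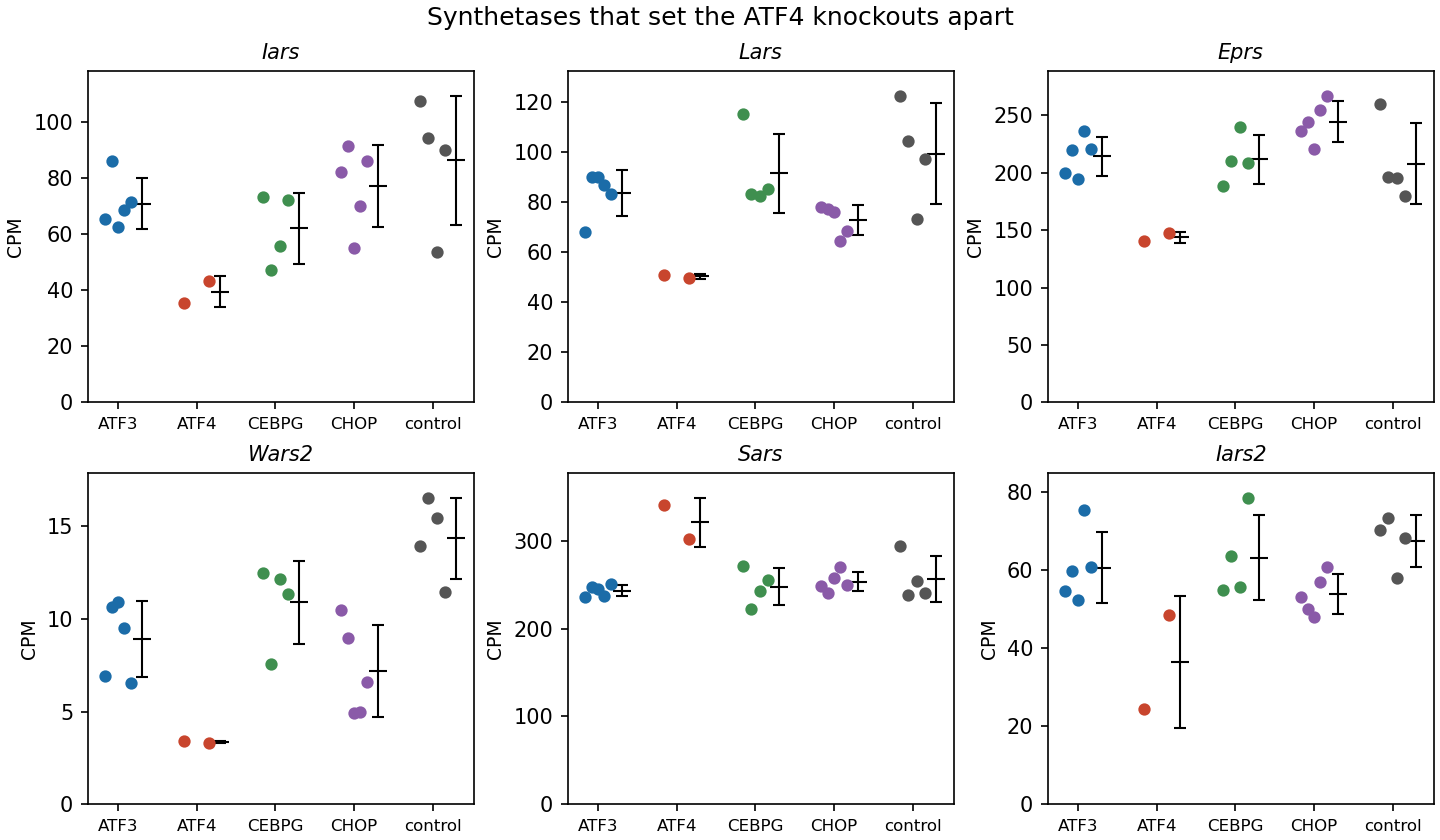
CPM of Iars, Lars, Eprs, Wars2, Sars and Iars2 in each of 20 libraries, 1 point per library, with the mean and SD of each group in black. The 2 ATF4 points of Iars, Lars, Eprs and Wars2 lie below all other libraries, and those of Sars lie above all others.

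Over all members, ATF4 against ATF3 knockouts gave 3 cytosolic and 2 mitochondrial genes lower (12.9% of all genes) and 2 and 0 higher (11.8%, and 24.7% in either direction). Against CEBPG knockouts 3 and 3 were lower (15.6%) and 3 and 0 higher (15.4%, and 30.9% in either direction), and against CHOP knockouts 3 and 1 were lower (13.2%) and 1 and 0 higher (12.5%, and 25.7% in either direction). The shares of the members were near those of all genes in the lower direction and below them in the higher direction, in which 0 of 16 mitochondrial genes passed. Without ATF4 replicate 1 the cytosolic counts were 0 lower and 0 higher against ATF3, and 1 lower and 0 higher against both CEBPG and CHOP. The ATF4 libraries are the only ones of batch 1 and share a batch with no other knockout, and they held 709 and 796 Ddx3y reads where the other knockouts had 0, so ATF4 knockout and batch cannot be told apart, and these 3 comparisons were added after the calls against control had been seen.

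The phenylalanyl enzyme of the cytosol is built from an alpha subunit, Farsa, and a beta subunit, Farsb, and both were lower than in controls in the CEBPG knockouts. Farsa was at 74.1, 71.2, 70.3, 80.9 and 74.6 CPM in the ATF3, 87.1, 72.9, 86.6 and 64.3 CPM in the CEBPG and 69.9, 79.9, 100.4, 86.9 and 69.3 CPM in the CHOP knockouts, against 108, 131, 119 and 136 CPM in the controls. It was lower in the ATF3 (-0.73, adjusted p = 8.23e-05), CEBPG (-0.67, adjusted p = 4.45e-04) and CHOP (-0.60, adjusted p = 6.72e-04) knockouts, and in the ATF4 knockouts it was at 118 and 99.4 CPM and did not pass (-0.18, adjusted p = 0.446). Farsb was at 66.0, 61.7, 80.7 and 74.8 CPM in the CEBPG and 81.5 and 81.8 CPM in the ATF4 knockouts, against 111, 144, 108 and 128 CPM in the controls. It was lower in the CEBPG (-0.79, SE 0.14, adjusted p = 9.05e-05) and ATF4 knockouts (-0.59, SE 0.17, adjusted p = 0.0120), and did not pass in the ATF3 (-0.27) or CHOP knockouts (-0.25). The ATF4 call of Farsb was lost without either ATF4 replicate (adjusted p up to 0.0832). Farsa was higher in the ATF4 than in the ATF3 knockouts (0.55, adjusted p = 0.0121), a call lost without ATF4 replicate 1 (0.42, adjusted p = 0.207). Exons of Farsb share 248 bases with Sgpp2 on the other strand.

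The ATF3, CEBPG and CHOP libraries come from the same batch and sex, so their synthetases could be compared within it. Cell type markers differed between these groups as well. Of 12 bipolar markers 11 were higher and 1 lower in ATF3 than in CHOP knockouts, and 10 higher and 0 lower in ATF3 than in CEBPG knockouts. In CEBPG over CHOP knockouts 12 of 14 rod and 10 of 12 amacrine markers were lower, and 12 of 15 microglia markers higher. Their part in the synthetase values was not tested. Between ATF3 and CHOP knockouts 0 of the 36 synthetases differed by edgeR's adjusted p, where 2.26% of all genes did (0.756% lower and 1.51% higher in ATF3). By unadjusted p below 0.05 in edgeR 1 cytosolic gene was lower and none higher, and by DESeq2's adjusted p there were 0. The fold changes of the members ran from -0.38 to 0.31 on the log2 scale. Between ATF3 and CEBPG knockouts, Cars, Dars and Qars of the cytosolic set and Cars2 and Sars2 of the mitochondrial set were lower in ATF3 (10.2% of all genes), and Farsb and Wars higher (10.1%, and 20.4% in either direction). The Qars call (adjusted p = 0.0490) was lost without ATF3 replicate 5, 7, 8 or 9 or CEBPG replicate 8, 9 or 10, and the Sars2 call without ATF3 replicate 6, 7, 8 or 9 or CEBPG replicate 8 or 9 (adjusted p up to 0.168 and 0.151). Between CEBPG and CHOP knockouts, Farsb, Wars and Nars were lower in CEBPG (13.2%), and Dars, Cars and Yars2 higher (13.5%, and 26.7% in either direction). Of the 36 members, 5 were thus lower and 2 higher in ATF3 than in CEBPG knockouts, and 3 lower and 3 higher in CEBPG than in CHOP knockouts. In either direction the members' share was near that of all genes in the first comparison and below it in the second.

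Dars, the aspartyl enzyme of the complex (chromosome 1, 128363707 to 128417368, minus strand), was at 113, 128, 125, 112 and 126 CPM in the ATF3, 141, 159, 181 and 175 CPM in the CEBPG and 127, 103, 107, 107 and 114 CPM in the CHOP knockouts. Every CEBPG library lay above every ATF3 and CHOP library. The log2 fold change was -0.44 for ATF3 over CEBPG (SE 0.11, adjusted p = 0.00508) and 0.56 for CEBPG over CHOP (SE 0.11, adjusted p = 4.63e-04). Both calls held with each single library, and with CEBPG replicates 6 and 8 together, left out. Against the controls, at 109.8, 102, 87.9 and 124 CPM, Dars was higher in the CEBPG knockouts as well (0.63, SE 0.12, adjusted p = 1.41e-04).

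Farsb was at 81.1, 114, 109.7, 108 and 95.6 CPM in the ATF3 and 98.1, 103, 83.5, 107 and 122 CPM in the CHOP knockouts, all above the CEBPG libraries given above. It was lower in the CEBPG than in the CHOP knockouts (-0.54, adjusted p = 0.00381) and higher in the ATF3 than in the CEBPG knockouts (0.52, adjusted p = 0.00627). Both calls were lost with CEBPG replicates 6 and 8 left out together (adjusted p up to 0.118). Wars, the cytosolic tryptophanyl enzyme, was at 163, 144, 167, 187 and 169.6 CPM in the ATF3, 109.7, 133, 125 and 119 CPM in the CEBPG and 159, 173, 115, 183 and 161 CPM in the CHOP knockouts. CHOP replicate 3, at 115 CPM, lay within the CEBPG range, and all ATF3 libraries lay above it. The log2 fold change was 0.45 for ATF3 over CEBPG (adjusted p = 0.0172) and -0.38 for CEBPG over CHOP (adjusted p = 0.0357), and both were lost without CEBPG replicate 6, the second also without CEBPG replicate 9 or 10 or CHOP replicate 1, 2, 4 or 5 (without CEBPG replicate 6, adjusted p = 0.0514 and 0.0891).

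Cars, lower than in controls in all of these knockouts, was higher in the CEBPG than in the CHOP knockouts (0.35, adjusted p = 0.0346) and lower in the ATF3 than in the CEBPG knockouts (-0.39, adjusted p = 0.0246). Both calls were lost without CEBPG replicate 6, 9 or 10, and with some ATF3 and CHOP libraries left out (adjusted p up to 0.0608 for ATF3 and 0.0770 for CHOP). Its mitochondrial counterpart Cars2 was at 23.8, 15.3, 20.9, 17.7 and 18.7 CPM in the ATF3 and 34.1, 27.0, 33.9 and 31.0 CPM in the CEBPG knockouts, with no overlap (-0.71, SE 0.20, adjusted p = 0.0153). Yars2, the mitochondrial tyrosyl enzyme, was at 29.4, 33.5, 30.5 and 32.9 CPM in the CEBPG and 19.2, 23.7, 16.3, 24.6 and 26.0 CPM in the CHOP knockouts (0.52, adjusted p = 0.0309). It no longer passed without CEBPG replicate 8 or 10 or CHOP replicate 1 or 3. Nars was at 237, 308, 271 and 269.7 CPM in the CEBPG and 305, 325, 315, 340.4 and 325 CPM in the CHOP knockouts (-0.25, adjusted p = 0.0478), and that call was lost without any 1 of the 5 CHOP replicates or CEBPG replicate 6, 9 or 10 (adjusted p up to 0.131). CEBPG replicates 6, 8, 9 and 10 also held more T and NK lymphocyte reads (0.156% to 0.231%) than the ATF3 (0.0352% to 0.0406%) and CHOP knockouts (0.0270% to 0.0425%), over 12 measured genes with none at 0, and their part in these differences was not tested.

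**Figure D5:**
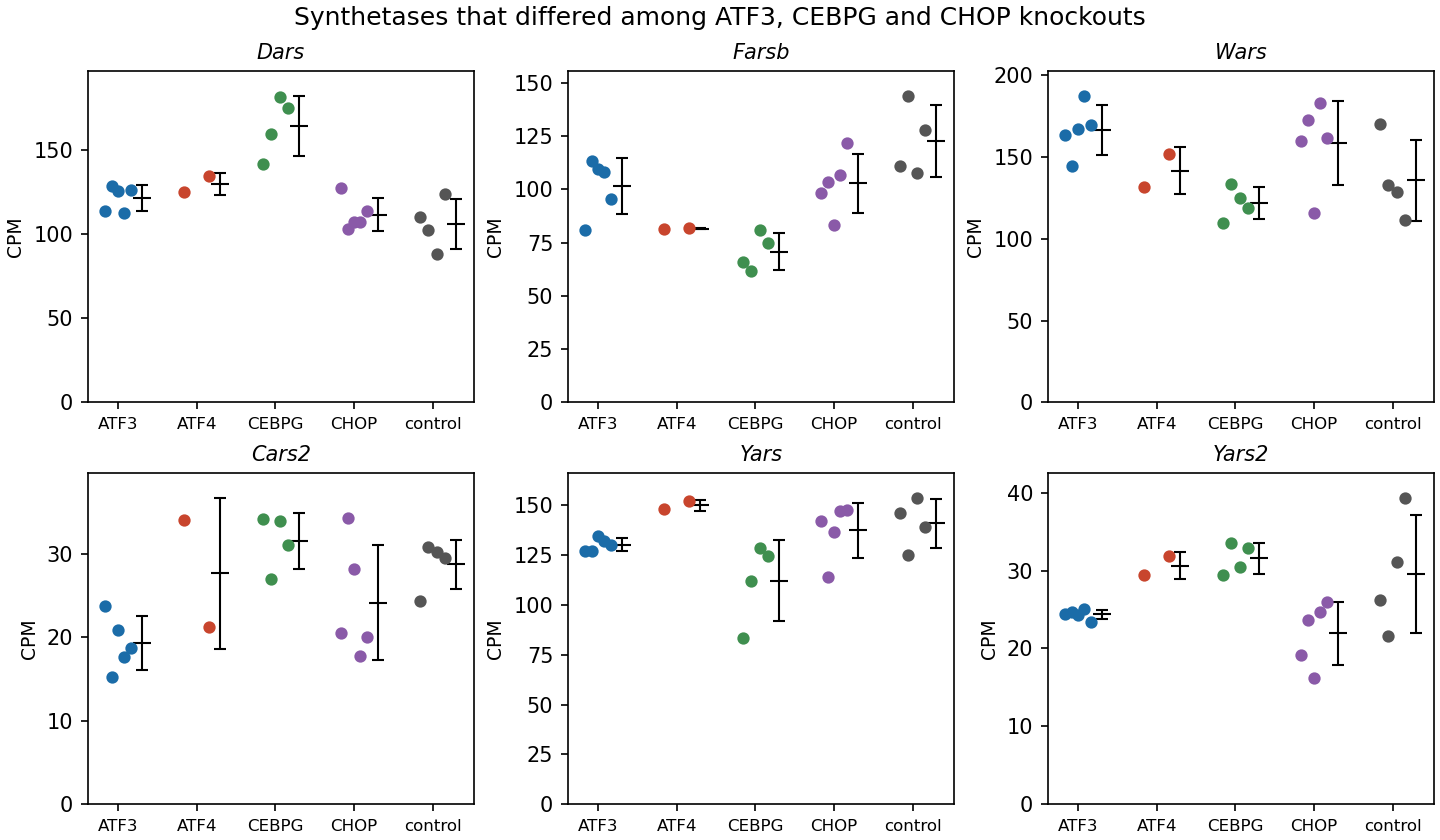
CPM of Dars, Farsb, Wars, Cars2, Yars and Yars2 in each of 20 libraries, 1 point per library, with the mean and SD of each group in black. The CEBPG points of Dars lie above those of ATF3 and CHOP, and the CEBPG points of Farsb lie below those of ATF3 and CHOP.

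Cytosolic and mitochondrial enzymes for the same amino acid form 17 pairs when Farsa and Farsb are each set beside Fars2, and Eprs beside Ears2 and Pars2. Both members were lower in 4 pairs in the ATF3 knockouts (Aars, Cars, Farsa and Mars with their counterparts) and 2 in the ATF4 knockouts (Iars and Mars). The CEBPG knockouts had 3 such pairs (Aars, Mars and Tars) and the CHOP knockouts 2 (Mars and Tars). Of all single genes 14.8%, 14.6%, 15.0% and 15.4% were lower in that order. No number of pairs expected from single genes was taken, so these counts do not show that the compartments moved together. The leucyl pair, Lars lower with Lars2 higher, was the 1 pair in opposite directions in the ATF4 and in the CHOP knockouts, and the ATF3 and CEBPG knockouts had none. Aars2 was lower in the ATF3 (-0.48, adjusted p = 0.0164) and CEBPG knockouts (-0.56, adjusted p = 0.00891), the second call lost with CEBPG replicates 6 and 8 left out (-0.44, adjusted p = 0.0959). Tars2 was lower in the CEBPG (-0.49, adjusted p = 0.0270) and CHOP knockouts (-0.41, adjusted p = 0.0455), with both calls lost without control replicate 5, the first also without CEBPG replicate 6 or 10 and the second without CHOP replicate 1 or 2 or control replicate 8. Fars2 (-0.47, adjusted p = 0.0288) and Cars2 (-0.58, adjusted p = 0.0343) were lower in the ATF3 knockouts, and each call was lost with 1 of several libraries left out (adjusted p up to 0.103 and 0.0886). Exons of Fars2 share 501 bases with Nrn1 on the other strand, which was lower in the ATF3 knockouts as well (-1.70, adjusted p = 4.42e-04).

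In 12 synthetases no comparison with control passed. In the cytosol these were Hars, Kars, Nars, Rars, Vars and Wars, with log2 fold changes from -0.24 to 0.40 over the 4 knockouts. Kars, the lysyl enzyme of both compartments, was at 0.02, 0.08, 0.17 and -0.01. In mitochondria these were Ears2, Nars2, Pars2, Sars2, Vars2 and Yars2, from -0.84 to 0.38. A value that did not pass does not show that the level was the same.

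Genes that work before and after the synthetases were read from a list of 32, of which 30 were measured. Against control 6 were higher and 3 lower in the ATF3, 9 and 4 in the ATF4, 6 and 0 in the CEBPG, and 6 and 2 in the CHOP knockouts, and the medians were 0.02, -0.01, 0.06 and 0.05 on the log2 scale. The counts of 6 of 30 stood beside 18.6% (ATF3), 18.3% (CEBPG) and 18.1% (CHOP) of all genes higher, and that of 9 of 30 beside 16.6% (ATF4). Of the 5 factors that deliver charged tRNA to the cytosolic ribosome, 5 were higher in the ATF4 knockouts and 3 in each of the others. Eef1a1, which carries charged tRNA to the ribosome, was at 721 ± 55.1 (ATF3), 703 ± 102 (ATF4), 1035 ± 124 (CEBPG) and 581 ± 44.8 CPM (CHOP), against 398 ± 46.5 CPM in the controls. Its log2 fold changes were 0.86, 0.82, 1.38 and 0.54, with adjusted p up to 2.45e-04. Eef1a2, its neuronal and muscle counterpart, was higher in the ATF4 knockouts (2.42, adjusted p = 3.93e-05), and Eef1d (0.63) and Eef1g (0.63), subunits of its exchange factor, were higher in the CEBPG knockouts.

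Dtd1, a deacylase that removes D-amino acids from tRNA, was higher in the ATF3 (0.86), ATF4 (1.49) and CHOP knockouts (0.79). Impact, an inhibitor of GCN2 activation, was higher in the ATF3 (1.19, adjusted p = 4.10e-06) and CHOP knockouts (1.34, adjusted p = 7.38e-07), and lower in the CEBPG than in the CHOP knockouts (-0.93, adjusted p = 1.50e-04). The scaffold gene Eef1e1 was higher in each knockout (log2 fold changes 0.51, 0.97, 0.60 and 0.53), and Aimp1 in the ATF4 knockouts (0.87, adjusted p = 0.00119), where 5 synthetases of the same complex were lower. In the ATF4 knockouts Sepsecs, which makes selenocysteinyl-tRNA (-2.09), Elac1, a nuclease in tRNA maturation (-0.91), and Ptrh2, a peptidyl-tRNA hydrolase (-1.04), were lower, all lost without ATF4 replicate 1. Pstk, the kinase of the selenocysteine tRNA pathway, was lower in the ATF3 knockouts (-0.52, adjusted p = 0.0198), lost without control replicate 5 or 8. Prorsd1 was lower in the ATF3 (-0.78) and CHOP knockouts (-0.89), and Tsfm, the exchange factor of the mitochondrial elongation factor, in the same groups (-0.49 and -0.64). The ATF3 call of Prorsd1 was lost without control replicate 8 (adjusted p = 0.0587), and that of Tsfm when any of ATF3 replicates 7, 8 and 9 or of control replicates 7 and 8 was left out (adjusted p up to 0.0867). Between batch-mates 0 genes of the list differed between ATF3 and CHOP knockouts, 1 was higher and 4 lower in ATF3 than in CEBPG knockouts, and 5 were higher and 1 lower in CEBPG than in CHOP knockouts, where 2.26%, 20.4% and 26.7% of all genes differed in either direction. Mtfmt, which formylates the initiator Met-tRNA of mitochondria, was among them (0.86 for CEBPG over CHOP, adjusted p = 0.00389), a call lost with CEBPG replicates 6 and 8 left out (0.56, adjusted p = 0.0995). Eef1a1 (0.83, adjusted p = 2.32e-06) and Gfm2, a mitochondrial ribosome recycling factor (0.41, adjusted p = 0.00838), were higher in the same comparison. In ATF3 over CEBPG knockouts Impact was higher (0.78, adjusted p = 0.00111), and Eef1a1 (-0.52), Mtfmt (-0.74) and Prorsd1 (-0.76) were lower, the last pair of calls lost without CEBPG replicate 6 (adjusted p = 0.0753 and 0.117), and that of Prorsd1 also without any of ATF3 replicates 6, 7 and 9 and CEBPG replicate 10.

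Other cell types moved with the groups beside these results. Over 14 rod markers the share of reads was 0.427% to 0.453% in the ATF3, 0.397% and 0.497% in the ATF4, 0.351% to 0.571% in the CEBPG and 0.534% to 0.908% in the CHOP knockouts, against 3.82% to 5.76% in the controls, with all 14 lower in each knockout. Of 10 cone markers 8 (ATF3), 2 (ATF4), 9 (CEBPG) and 8 (CHOP) were lower than in controls, and 6 were higher in the ATF4 knockouts than in each of the other knockouts. Over 12 amacrine markers the share of reads was 0.367% to 0.882% in knockouts and 0.169% to 0.297% in controls, with 10 or 11 of the 12 higher. T and NK lymphocyte genes were at 0.0352% to 0.0406% in the ATF3 and 0.00145% and 0.00650% in the ATF4 knockouts. They were at 0.156% to 0.231% in the CEBPG and 0.0270% to 0.0425% in the CHOP knockouts, against 5.70e-04% to 0.00151% in the controls. The groups with the larger shares are those of batch 3. Klrb1c and Cd163l1 were at 0 in the ATF4 knockouts and in the controls. The part of these cells in the synthetase values was not tested.

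The authors' deposited table of log fold changes, whose log base, model and reference group are not stated, called fewer members. At an FDR below 0.05 it lists Cars as lower in the ATF4 knockouts (-1.23), Aars (-0.42), Farsa (-0.56) and Farsb (-0.69) as lower and Dars (0.46) and Hars (0.47) as higher in the CEBPG knockouts, and no member in the ATF3 or CHOP knockouts. In that table the cytosolic median was -0.14 (ATF3), -0.31 (ATF4), -0.15 (CEBPG) and -0.08 (CHOP), and Lars2 was at -0.04, 0.49, 0.05 and -0.12 with no call. The sign in the authors' deposited table was opposite to that of the edgeR fit for 6 cytosolic and 4 mitochondrial members in the ATF3, 3 and 3 in the ATF4, 2 and 3 in the CEBPG, and 6 and 4 in the CHOP knockouts. Since that table's reference is not stated, the compared groups may differ from those of the edgeR fit.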

How the data were processed

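Bulk RNA-seq (SMART-Seq v4 libraries) had been made from sorted retinal ganglion cells. Per the submitters' processing notes, STAR, Picard, HTSeq and edgeR were used with the mm10 build; the annotation, strand setting and versions are not given there. The authors deposited raw read counts per gene, log fold changes (base and reference not given, base taken as log2) and p-values with FDR per knockout. Batch and sex entries come from their sample sheet, of which 38 columns were not used.

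From the counts, genes passing filterByExpr (minimum count 10) were tested in edgeR 4.0.16 (R 4.3.3) with TMM, one quasi-likelihood fit over 20 libraries (15 residual degrees of freedom) and Benjamini-Hochberg adjustment over 16797 genes (367 removed). CPM use TMM-scaled totals. No label ties the libraries of a group to different animals, so the p-values reflect spread among libraries that may be technical. Depths of 6401446 to 32776378 reads limit precision for genes of a few CPM. Alternatives were DESeq2 1.42.0, RLE factors, no filter, only the groups compared, a block on replicate number and leaving out libraries. The calculation was tested on simulated data. Some promoter windows are not reported here. The members and lists were chosen with earlier results of these data known. Per-library values are given for the 5 called members per direction with the smallest adjusted p against control, 3 between knockouts of 1 batch, and pairs called in opposite directions. Up to 3 called pathway genes per direction are named by fold change.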

Additional observations from a re-analysis of the deposited data

Results flagged for a closer look

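In 4 of the 152 groups of 4 or 5 libraries examined, 1 library lay far from the others by Dixon's ratio at 95%, where chance gives about 1 in 20. Cars was at 64.4 CPM in CEBPG replicate 8, the lowest of its group, and Lars was at 115 CPM in CEBPG replicate 6, the highest of its group. Mars2 was at 18.0 CPM in CEBPG replicate 9, the highest of its group. The summed cytosolic level of 2503 CPM in ATF3 replicate 5 was the lowest of the ATF3 knockouts.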

How the results depend on the processing

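The counts of synthetases called are given here as the count under the alternative, with the main count in brackets. They stand without the share of all genes called under that alternative. The 3 comparisons of ATF4 with another knockout were added after the data had been seen. Under DESeq2, the cytosolic genes called lower numbered 5 (3) for ATF4 over CEBPG. Under DESeq2, the cytosolic genes called higher numbered 3 (1) for CEBPG and 2 (1) for ATF4 over CHOP. Under DESeq2, the mitochondrial genes called lower numbered 7 (4) for ATF3, 8 (3) for CHOP and 3 (1) for ATF4 over CHOP. Under DESeq2, the pathway genes called lower numbered 1 (0) for CEBPG and 4 (2) for CHOP. Under DESeq2, the pathway genes called higher numbered 1 (0) for ATF3 over CHOP. Under RLE size factors, the mitochondrial genes called lower numbered 6 (3) for CHOP. With only the 2 groups compared in the fit, the cytosolic genes called lower numbered 5 (8) for CEBPG and 1 (3) for CEBPG over CHOP. With only the 2 groups compared in the fit, the cytosolic genes called higher numbered 0 (1) for ATF4, 1 (2) for CEBPG over CHOP and 0 (3) for ATF4 over CEBPG. With only the 2 groups compared in the fit, the mitochondrial genes called lower numbered 7 (4) for ATF3, 0 (3) for ATF4 over CEBPG and 0 (1) for ATF4 over CHOP. With only the 2 groups compared in the fit, the mitochondrial genes called higher numbered 0 (1) for CEBPG. With CEBPG replicates 6 and 8 left out, an alternative chosen after seeing the data, the cytosolic genes called lower numbered 0 (3) for CEBPG over CHOP. With CEBPG replicates 6 and 8 left out, an alternative chosen after seeing the data, the cytosolic genes called higher numbered 4 (1) for CEBPG, 0 (2) for ATF3 over CEBPG and 1 (3) for ATF4 over CEBPG. With CEBPG replicates 6 and 8 left out, an alternative chosen after seeing the data, the mitochondrial genes called lower numbered 0 (3) for CEBPG and 1 (2) for ATF3 over CEBPG. With CEBPG replicates 6 and 8 left out, an alternative chosen after seeing the data, the mitochondrial genes called higher numbered 0 (1) for CEBPG over CHOP. With the replicate block, the cytosolic genes called lower numbered 4 (7) for ATF3, 1 (9) for ATF4, 2 (8) for CEBPG, 1 (7) for CHOP, 0 (3) for ATF3 over CEBPG, 0 (3) for CEBPG over CHOP, 0 (3) for ATF4 over ATF3, 0 (3) for ATF4 over CEBPG and 1 (3) for ATF4 over CHOP. With the replicate block, the cytosolic genes called higher numbered 1 (0) for ATF3, 0 (1) for ATF4, 0 (1) for CEBPG, 1 (2) for ATF3 over CEBPG, 0 (2) for CEBPG over CHOP, 0 (2) for ATF4 over ATF3, 0 (3) for ATF4 over CEBPG and 0 (1) for ATF4 over CHOP. With the replicate block, the mitochondrial genes called lower numbered 2 (4) for ATF3, 0 (5) for ATF4, 1 (3) for CEBPG, 0 (3) for CHOP, 0 (2) for ATF3 over CEBPG, 0 (2) for ATF4 over ATF3, 0 (3) for ATF4 over CEBPG and 0 (1) for ATF4 over CHOP. With the replicate block, the mitochondrial genes called higher numbered 0 (1) for CEBPG and 0 (1) for CEBPG over CHOP. The replicate numbers do not mark shared animals or batches in the labels. Deviations of the 12 same-numbered pairs correlated between -0.092 and 0.0748, and those of the 145 other pairs between -0.116 and 0.114. Correlations over 12 pairs cannot decide whether same-numbered samples share more than a number, so they do not set aside the losses under the replicate block. The block adds terms for the replicate numbers, which leaves fewer than the 15 residual degrees of freedom of the main fit. The ATF4 libraries share replicate numbers only with CHOP libraries, so under the block their other comparisons run through the CHOP knockouts. Losses under the block cannot be told apart from this lower precision. Leaving out 1 library in turn, the cytosolic genes called lower numbered 4 to 9 for ATF4, 1 to 3 for ATF3 over CEBPG, 1 to 3 for CEBPG over CHOP, 0 to 3 for ATF4 over ATF3, 1 to 4 for ATF4 over CEBPG and 1 to 3 for ATF4 over CHOP. Leaving out 1 library in turn, the cytosolic genes called higher numbered 0 to 1 for ATF3, 0 to 1 for ATF4, 1 to 4 for CEBPG, 0 to 2 for CHOP, 1 to 2 for ATF3 over CEBPG, 1 to 2 for CEBPG over CHOP, 0 to 2 for ATF4 over ATF3, 0 to 3 for ATF4 over CEBPG and 0 to 2 for ATF4 over CHOP. Leaving out 1 library in turn, the mitochondrial genes called lower numbered 2 to 5 for ATF4, 2 to 5 for CHOP, 1 to 2 for ATF3 over CEBPG, 0 to 2 for ATF4 over ATF3 and 0 to 1 for ATF4 over CHOP. Leaving out 1 library in turn, the mitochondrial genes called higher numbered 0 to 1 for CEBPG, 0 to 2 for ATF3 over CEBPG, 0 to 2 for CEBPG over CHOP and 0 to 1 for ATF4 over CEBPG. Of 1395 alternatives other than the replicate block for 114 called values of single genes, 1195 kept the call, 200 lost it and 0 reversed, and the replicate block, counted apart, lost 89 of the 114. The cause of these losses was not tested, apart from the fewer libraries in the fits that leave some out. Controls held the fewest reads, from 6401446 per library, which limits genes of a few CPM such as Mars2 and Wars2.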

Other observations

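The library whose title says control and whose genotype says CHOP knockout was set beside the ranges of the grouped libraries. Of the 36 synthetases, 18 lay within the range of the knockout libraries but not of the controls, 0 within that of the controls but not of the knockouts, 13 within both and 5 (Sars, Aars2, Ears2, Fars2 and Lars2) within neither. The knockout range spans 4 groups and more libraries than the control range, which favours the knockout range in advance. These counts therefore cannot decide the group of this library. It is the only library of batch 4, is given as male and held 4794 Ddx3y reads. In this library Cars was at 72.8 CPM, Qars at 45.5 CPM, Mars2 at 10.2 CPM and Lars2 at 129 CPM.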
